A study of Gallus gallus with 20 samples.

Results

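The hypothalamus and the pituitary of male Korat chickens, a slow-growing Thai crossbred, were compared by RNA sequencing of 10 libraries of each tissue. The members were chosen by their column names in the deposited count table, 10 labelled hypothalamus and 10 labelled pituitary, which are all 20 samples of the series. Birds were kept in individual cages with free access to a commercial feed. At an age of 10 weeks those at the extremes of residual feed intake (RFI, the feed eaten beyond what growth and upkeep predict) among 200 reared formed a low RFI and a high RFI group. Each tissue had 5 libraries from low RFI and 5 from high RFI birds, without any drug, diet or genetic treatment. Hypothalamus pools were described as made from 10 birds a group in 5 pools. For the pituitary 8 birds a group in 4 pools of pairs with neighbouring RFI were described, while the titles list 5 libraries a group, and this difference was not resolved here. Every library was taken here as a pool of whole tissue pieces, and the spread between libraries as that between pools. For the pituitary this is an assumption, because of the difference in the number of pools.

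The hypothalamus is the part of the forebrain floor whose neurons send releasing and inhibiting peptides through portal vessels to the anterior pituitary, and whose magnocellular neurons send vasotocin and mesotocin, the avian forms of vasopressin and oxytocin, down axons to the posterior lobe. The anterior pituitary answers with growth hormone, prolactin, thyrotropin, the gonadotropins and the peptides cut from pro-opiomelanocortin, each made by its own cell type. The question addressed here is which hormones, receptors, transcription factors, channels and metabolic genes separated the pair of tissues, and whether the same separation was had in low RFI and in high RFI birds.

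Hypothalamus libraries held 11418600 to 12647034 counts each and pituitary libraries 10262777 to 11960994. Levels are given as counts scaled to library size (CPM), and folds as log2 of pituitary over hypothalamus, so that a positive fold means higher in the pituitary. The first principal component of log2 CPM held 70.4% of the variance and placed all hypothalamus libraries at -97.8 to -66.2 and 9 pituitary libraries at 34.4 to 121, with pituitary low RFI library 1 at -14.97 between them. Common biological variation between libraries, as edgeR's coefficient, was 0.230 among hypothalamus and 0.411 among pituitary libraries. It was 0.192 and 0.232 without 5 libraries set apart from earlier results of these data (hypothalamus low RFI 2; pituitary low RFI 1, 2 and 4; pituitary high RFI 4). Each of the 5 held its tissue's highest sum of at least 1 list of markers of other tissues. That was not particular to them. Pituitary high RFI library 2, which was kept, held the highest pituitary sums of skeletal muscle (1393 CPM) and fibroblast markers (16263 CPM). Hypothalamus low RFI library 2 held 2104 CPM of summed pineal markers and 25799 CPM of summed choroid plexus markers, against at most 20.4 and 116 CPM in the other 9 hypothalamus libraries. Pituitary low RFI library 1 held 4619 CPM of summed neuron markers against a pituitary median of 891 CPM, and pituitary high RFI library 4 held 1196 CPM of summed cerebellum markers against 151 CPM. Sensory ganglion markers reached 1023 CPM in pituitary low RFI library 2, and airway and gut epithelium markers 1007 CPM in pituitary low RFI library 4, against at most 322 CPM in the other 9. The airway and gut list includes EPCAM and CDH1, which were high in every pituitary library. Each result was therefore also computed on the other 15 libraries.

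Of 16747 genes tested 6422, or 38.3%, were higher in the pituitary and 5464, or 32.6%, were higher in the hypothalamus at an adjusted p under 0.05 in edgeR's quasi-likelihood test with RFI group as covariate. At least 4-fold differences were had by 1225 genes (7.31%) toward the pituitary and 718 genes (4.29%) toward the hypothalamus. With no scaling factor the split was 8799 toward the pituitary and 3759 toward the hypothalamus. In 1819 genes (10.9%) every pituitary library lay above every hypothalamus library, and in 1346 genes (8.04%) the reverse held. The median log2 fold over all genes tested was 0.074, and it became 0.37 with no scaling factor, a shift of 0.29 that every fold below shares under that setting. In a fit of 4 group means over all 20 libraries 9363 genes (55.9%) were called within low RFI and 9998 genes (59.7%) within high RFI. Fits of only 10 libraries called 7197 genes in low RFI and 9955 in high RFI. Of the 8257 genes called in both RFI groups, 8256 had the same direction in both. The tissue fold differed between low and high RFI for 0 genes (0%) at an adjusted p under 0.05 in edgeR, 392 genes having an unadjusted p under 0.05; DESeq2 called 2 genes and limma-voom 0. In whole tissue, fewer cells of a type and less RNA per cell of that type cannot be told apart, and this holds for every fold below.

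**Figure D1:**
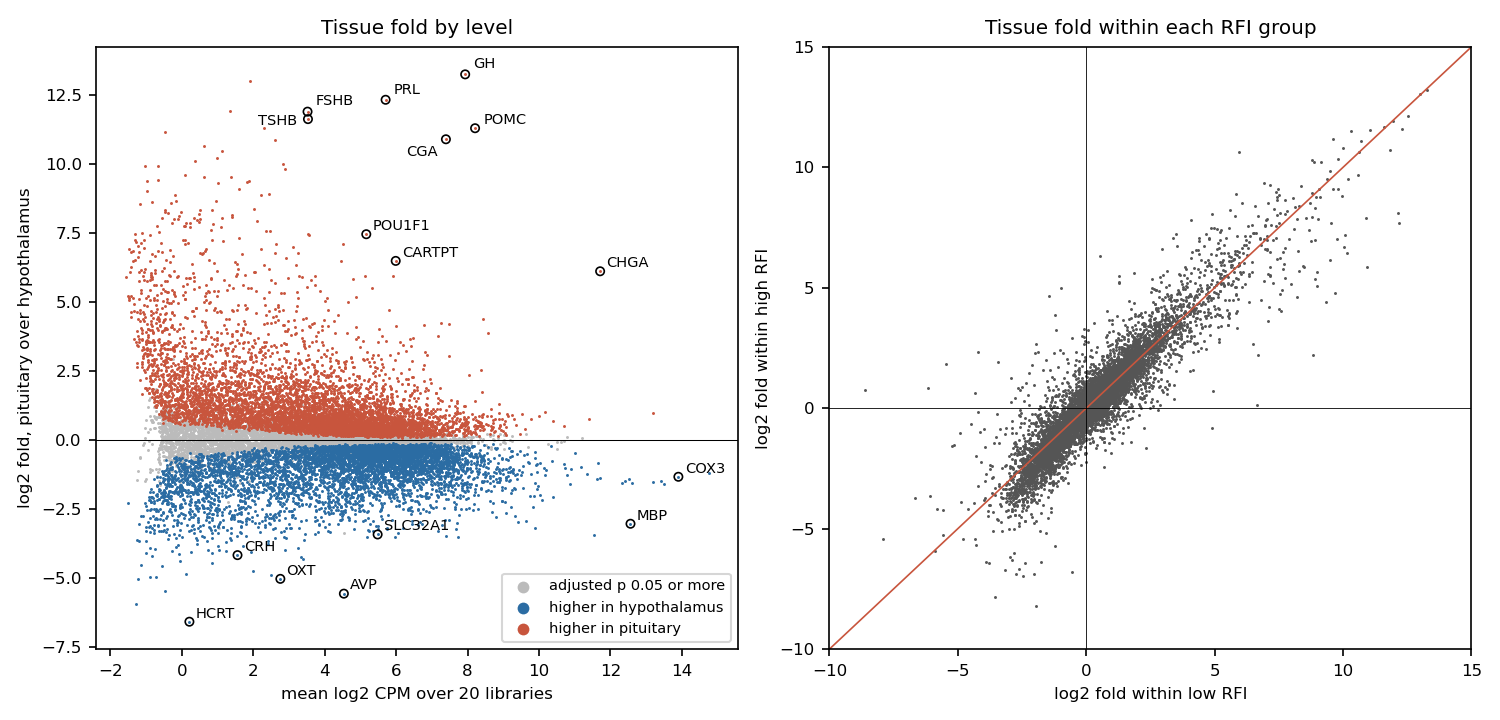
Left, mean log2 CPM of each tested gene over the 20 libraries (x) against its log2 fold of pituitary over hypothalamus (y), with genes at an adjusted p under 0.05 coloured by the higher tissue and 16 genes described in the text marked. Right, the log2 fold within low RFI libraries (x) against that within high RFI libraries (y) for the same genes, with the line of equal folds; of 8257 genes called in both, 8256 lie on the same side of 0.

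The 6 hormone genes of the anterior lobe took a median of 7.75% of a pituitary library's counts (2.13% to 10.97%) and a median of 0.00135% of a hypothalamus library's counts. The lowest pituitary share, 2.13%, was that of low RFI library 1, and without the 5 libraries that stood apart the range was 5.73% to 10.97%. GH, growth hormone (chromosome 27, 4034905 to 4038410, build GRCg6a), had 0 to 8.58 CPM in the hypothalamus (median 2.60) and 5572 to 53056 CPM in the pituitary (median 28636). No pituitary library came near the hypothalamus range, although the pituitary values spread widely and low RFI library 1 was the lowest. The log2 fold was 13.25 ± 0.76 (SE, edgeR adjusted p = 6.69e-11), with 13.28 within low RFI and 13.22 within high RFI. PRL, prolactin (chromosome 2, 58571228 to 58577382), had 0 to 6.28 CPM in the hypothalamus (median 0.181) and 1605 to 10670.0 CPM in the pituitary (median 6085). Its pituitary libraries all exceeded the hypothalamus libraries, most of which held under 1 CPM, at a log2 fold of 12.33 ± 0.98 (SE, edgeR adjusted p = 4.42e-09). POMC (chromosome 3, 105372181 to 105388173), the precursor of corticotropin and melanocortins, had 0.878 to 17.4 CPM in the hypothalamus (median 4.56) and 8455 to 24793 CPM in the pituitary (median 21710.0). It likewise had no overlap and a log2 fold of 11.30 ± 0.66 (SE, edgeR adjusted p = 7.91e-11).

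The glycoprotein hormones behaved in the same way. CGA (chromosome 3, 76586294 to 76603827), the alpha subunit shared by thyrotropin and the gonadotropins, had 0.585 to 11.9 CPM in the hypothalamus (median 4.02) and 4083 to 15150.0 CPM in the pituitary (median 9417). The tissues did not overlap, and the log2 fold was 10.90 ± 0.62 (SE, edgeR adjusted p = 5.9e-11), 10.32 within low RFI and 11.52 within high RFI. TSHB (chromosome 26, 3979543 to 3982439), the thyrotropin-specific subunit, had 0 to 0.53 CPM in the hypothalamus (median 0.0888) and 202 to 980.5 CPM in the pituitary (median 579). Every pituitary library lay above every hypothalamus library, at a log2 fold of 11.63 ± 0.57 (SE, edgeR adjusted p = 8.35e-12). FSHB (chromosome 5, 4772497 to 4775872), the follitropin-specific subunit, had 0 to 0.617 CPM in the hypothalamus (median 0.0884) and 76.3 to 1414 CPM in the pituitary (median 598). The ranges did not overlap, and the log2 fold was 11.90 ± 0.70 (SE, edgeR adjusted p = 8.73e-11). Its lowest pituitary value was that of low RFI 2 and its highest that of high RFI 5, a wider spread between pools than in TSHB or CGA. PRLL, a gene related to prolactin, did not pass the test, with 0.699 to 5.39 CPM in the hypothalamus (median 1.57) and 0.232 to 11.4 CPM in the pituitary (median 1.84). Its tissues overlapped (log2 fold 0.55 ± 0.57 (SE, edgeR adjusted p = 0.398)). Of the 7 hormone genes tested 6 were higher in the pituitary, 0 were higher in the hypothalamus and 6 did not overlap. Over all genes 38.3% were higher in the pituitary, and 10.9% were so without overlap.

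**Figure D2:**
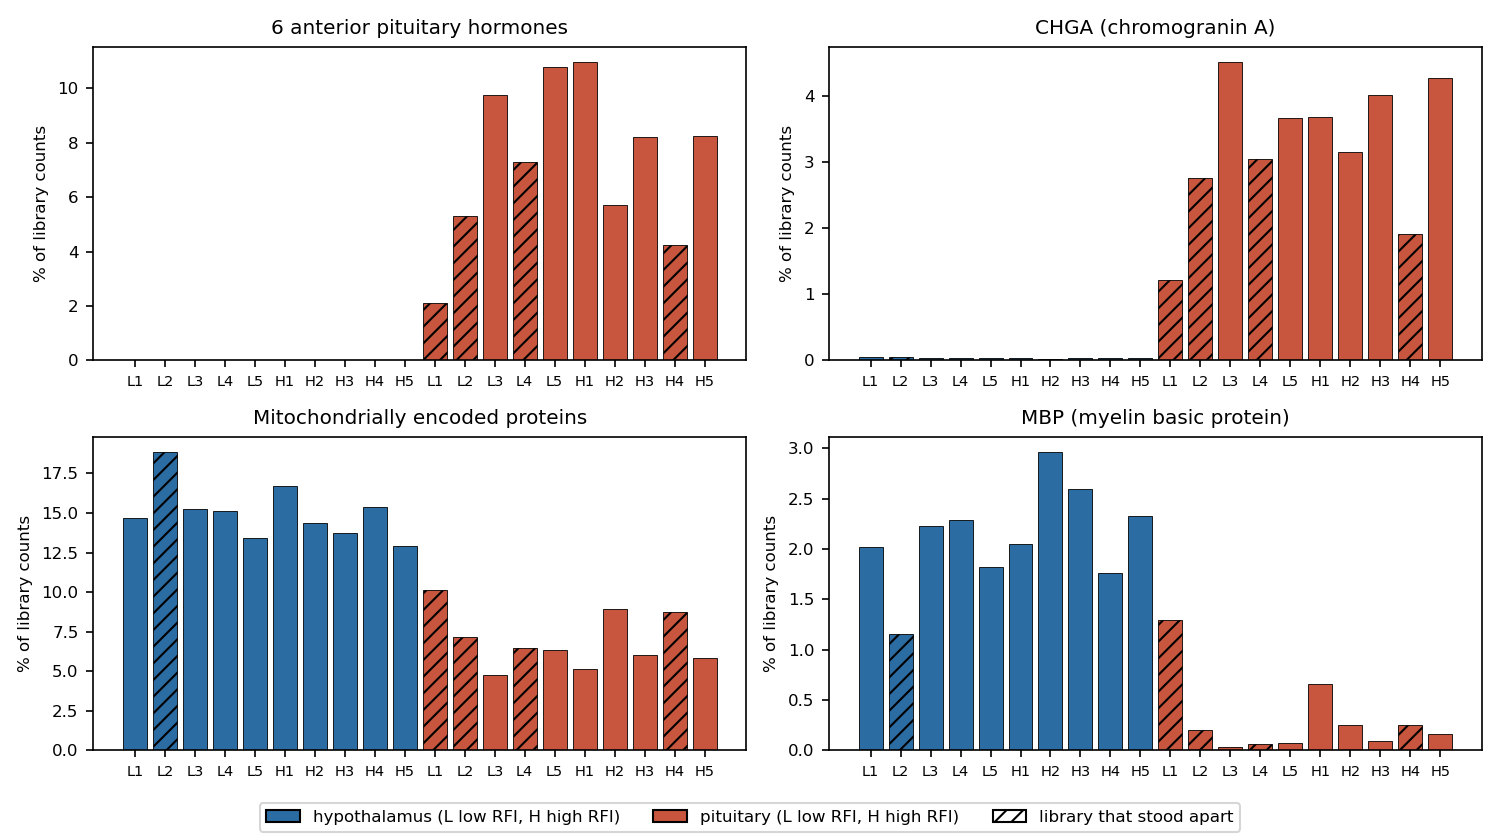
Share of each library's counts (percent, y) in 4 groups of genes, one bar per library and one panel per group: the 6 anterior pituitary hormones, CHGA, the mitochondrially encoded proteins, and the myelin gene MBP. Libraries that stood apart are hatched; hormone shares lie at 2.13% to 10.97% in pituitary libraries and mitochondrial shares at 12.9% to 18.9% in hypothalamus libraries.

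Beside the hormones, the genes of largest pituitary fold with a mean of at least 50 CPM held secretory, receptor and muscle genes. AGR3 (chromosome 2, 28590281 to 28597092) had 0 counts in all 10 hypothalamus libraries and 31.1 to 117 CPM in the pituitary libraries (median 93.2). Against a floor of 3 counts over the 10 hypothalamus libraries it was at least 3260.4-fold higher in the pituitary. Its neighbour in function AGR2, also a disulfide isomerase of the endoplasmic reticulum, had 0 to 0.175 CPM in the hypothalamus (median 0) and 50.7 to 316 CPM in the pituitary (median 115). The lowest pituitary library was above the highest hypothalamus library (log2 fold 11.29 ± 0.55 (SE, edgeR adjusted p = 8.35e-12)). In all, 38 of the 28021 genes, 12 of them protein-coding, had no hypothalamus count and a count in every pituitary library. Some of them had few counts, down to 39 over the 10 pituitary libraries. The opposite pattern, shown by 0 genes, needs 0 counts in all 10 pituitary libraries. Among these is low RFI library 1, which held 4619 CPM of summed neuron markers. The skeletal muscle genes MYH1D and MYH1B, myosin heavy chains, were also among the genes of largest pituitary fold, at log2 folds of 10.49 ± 1.44 and 9.52 ± 1.18 (SE), but they were uneven between pools. MYH1D had 0 to 0.265 CPM in the hypothalamus (median 0) and 0 to 422 CPM in the pituitary (median 58.1), and 2 pituitary libraries, low RFI 1 and high RFI 4, lay within the hypothalamus range. The sum of MYH1D, MYH1B, MYL1 and MYBPC1, of which the last pair was chosen after its values were seen, ran from 0.324 to 1393 CPM over the pituitary libraries and did not pass 0.961 CPM in any hypothalamus library. Both myosin genes lost their call in limma-voom (adjusted p = 0.169 and 0.0991), and the part of muscle tissue in these values was not tested.

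Releasing peptides and the peptides of the posterior lobe formed the opposite group. Of 11 tested, 9 were higher in the hypothalamus and 0 in the pituitary, against 32.6% and 38.3% of all genes. Without the 5 libraries these counts were 9 and 1, the 1 being GHRH (log2 fold 0.997, edgeR adjusted p = 0.029). The median log2 fold was -2.14, and -3.56 without the 5 libraries. AVP (chromosome 4, 88653691 to 88655304), the vasotocin gene, had 27.5 to 1238 CPM in the hypothalamus (median 209.8) and 0.236 to 89.7 CPM in the pituitary (median 1.30). The hypothalamus pools spread widely among themselves, lowest in low RFI 5 and highest in high RFI 5, and 1 pituitary library, low RFI 1, reached into their range. The log2 fold was -5.55 ± 1.2 (SE, edgeR adjusted p = 0.000407), -3.53 within low RFI and -7.84 within high RFI, and -7.82 without the 5 libraries. OXT, the mesotocin gene, had 9.99 to 262 CPM in the hypothalamus (median 49.3) and 0.0864 to 17.8 CPM in the pituitary (median 0.499). It overlapped through the same pituitary library, at a log2 fold of -5.02 ± 0.91 (SE, edgeR adjusted p = 7.29e-05). CRH, the releasing hormone of corticotrophs, had 10.3 to 43.9 CPM in the hypothalamus (median 20.7) and 0 to 16.995 CPM in the pituitary (median 0.0805). Apart from low RFI library 1, the highest of them, no pituitary library passed 1.05 CPM, and the log2 fold went from -4.16 ± 0.90 (SE, edgeR adjusted p = 0.000416) to -8.64 without the 5 libraries. TRH, the releasing hormone of thyrotrophs and lactotrophs, had low values of 2.25 to 15.996 CPM in the hypothalamus (median 3.03) and 0.173 to 1.88 CPM in the pituitary (median 0.403). No pituitary library reached the hypothalamus range, and the log2 fold was -2.94 ± 0.47 (SE, edgeR adjusted p = 1.67e-05). NPVF, the precursor of gonadotropin-inhibitory hormone, had 3.88 to 89.6 CPM in the hypothalamus (median 20.4) and 0 to 3.31 CPM in the pituitary (median 0.673). Every hypothalamus library lay above every pituitary library, at a log2 fold of -4.73 ± 0.69 (SE, edgeR adjusted p = 6.16e-06).

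SST, somatostatin, the inhibitor of growth hormone release, had 52.5 to 150.2 CPM in the hypothalamus (median 83.8) and 0.8 to 93.8 CPM in the pituitary (median 15.2). It overlapped and had a log2 fold of -2.14 ± 0.55 (SE, edgeR adjusted p = 0.00191), which became -3.17 without the 5 libraries. The related stress peptide UCN3 and the peptides ADCYAP1 and VIP, releasing factors of several pituitary cell types, were higher in the hypothalamus at log2 folds of -1.91 ± 0.43, -1.71 ± 0.54 and -1.37 ± 0.47 (SE), with overlap in all 3. Their edgeR adjusted p values were 0.000589, 0.00834 and 0.0131. The VIP fold was -2.37 within low RFI and -0.41 within high RFI, and the difference between them did not pass the interaction test. GNRH1, gonadotropin-releasing hormone, was near the limit of counting with 0.0864 to 2.59 CPM in the hypothalamus (median 1.12) and 0.16 to 1.18 CPM in the pituitary (median 0.693). It did not pass (log2 fold -0.78 ± 0.41 (SE, edgeR adjusted p = 0.0953)). Without hypothalamus low RFI library 5, which held the 0.0864 CPM, it passed toward the hypothalamus at -0.946 (edgeR adjusted p = 0.0237). GHRH, the growth hormone releasing hormone gene, had 3.97 to 21.96 CPM in the hypothalamus (median 12.8) and 0.24 to 97.9 CPM in the pituitary (median 20.04). It did not pass either, at a log2 fold of 1.05 ± 0.57 (SE, edgeR adjusted p = 0.107), -0.16 within low RFI and 2.27 within high RFI. Pituitary low RFI library 2 held 0.24 CPM of it, and without that library the fold passed at 1.29 (edgeR adjusted p = 0.015).

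**Figure D3:**
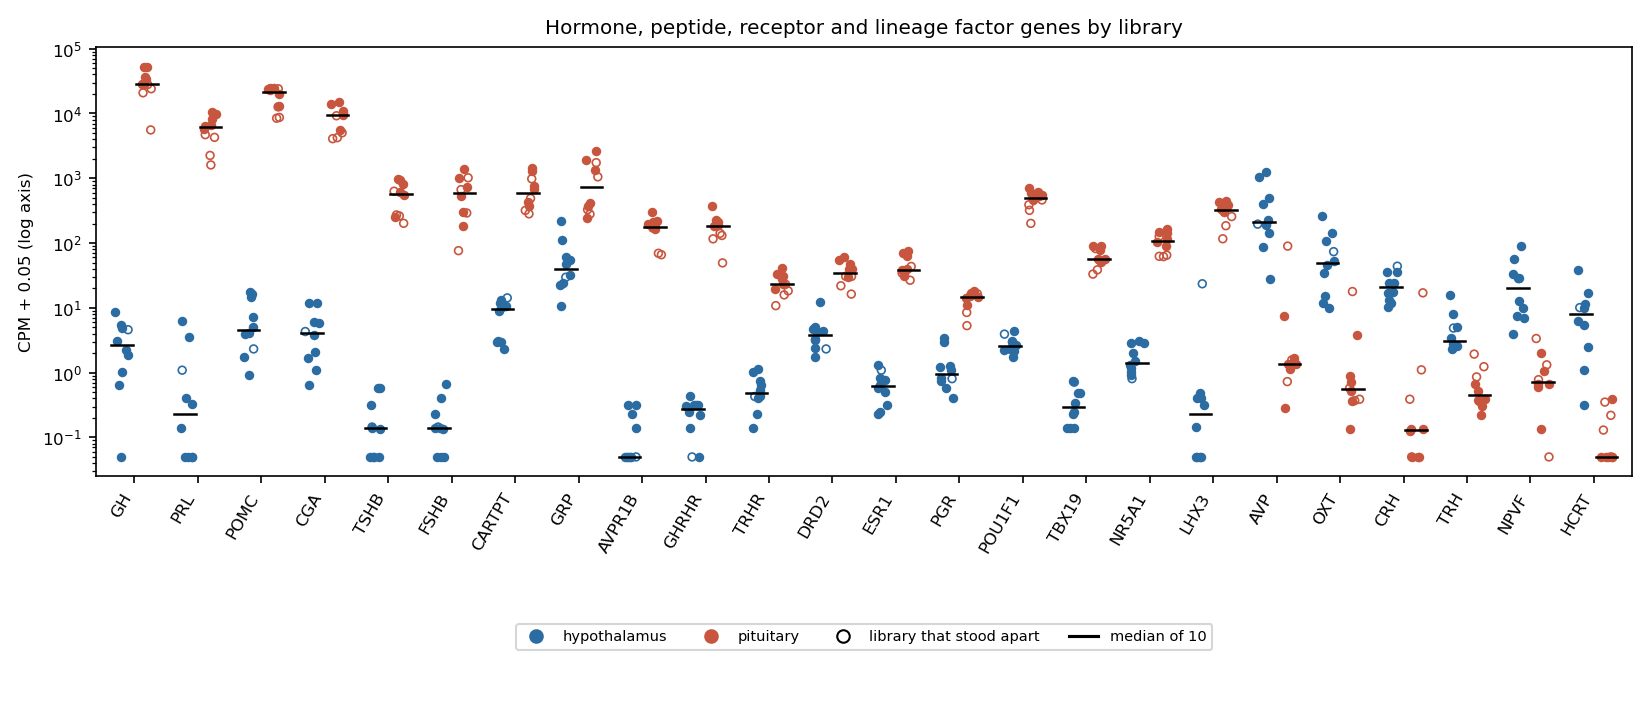
CPM of 24 hormone, peptide, receptor and transcription factor genes in each library, on a log axis with 0.05 CPM added so that 0 can be drawn; 10 hypothalamus and 10 pituitary points per gene, open points for the 5 libraries that stood apart, and a bar at each tissue's median. The 6 anterior lobe hormone genes separate completely, while AVP, OXT and CRH overlap through pituitary low RFI library 1.

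Peptides of the feeding circuits were called in both directions. Of 17 tested, 6 were higher in the hypothalamus, 4 in the pituitary and 7 did not pass, a hypothalamus share of 35.3% against 32.6% over all genes. Without the 5 libraries 9 were higher in the hypothalamus and 5 in the pituitary. HCRT, the orexin gene of lateral hypothalamic neurons, had 0.265 to 38.9 CPM in the hypothalamus (median 8.02) and 0 to 0.342 CPM in the pituitary (median 0). It overlapped only through 1 low hypothalamus library, low RFI 1, and had a log2 fold of -6.57 ± 0.85 (SE, edgeR adjusted p = 1.68e-06). CCK, NTS, PYY and PNOC, the cholecystokinin, neurotensin, peptide YY and nociceptin genes, were higher in the hypothalamus at log2 folds of -2.58, -2.36, -2.32 and -1.33, all with overlap. PENK, the enkephalin precursor, had 107 to 185 CPM in the hypothalamus (median 143) and 27.2 to 101 CPM in the pituitary (median 57.2). The tissues did not overlap, with a log2 fold of -1.28 ± 0.17 (SE, edgeR adjusted p = 1.81e-06). On the other side, CARTPT (chromosome Z, 73348208 to 73349070), the precursor of the appetite-reducing CART peptide, had 2.30 to 14.2 CPM in the hypothalamus (median 9.59) and 282 to 1432 CPM in the pituitary (median 591). Every pituitary library was above every hypothalamus library, at a log2 fold of 6.50 ± 0.47 (SE, edgeR adjusted p = 1.17e-09), 6.21 within low RFI and 6.79 within high RFI. GRP, gastrin-releasing peptide, had 10.5 to 216 CPM in the hypothalamus (median 39.98) and 243 to 2625 CPM in the pituitary (median 732). There was no overlap, and the pituitary was higher by a log2 fold of 4.20 ± 0.60 (SE, edgeR adjusted p = 5.41e-06). AGRP, the melanocortin antagonist known from appetite-raising neurons of the hypothalamus, had 0 to 1.94 CPM in the hypothalamus (median 0.183) and 0.56 to 14.98 CPM in the pituitary (median 6.13). Its tissues overlapped, and it was higher in the pituitary at a log2 fold of 3.67 ± 0.67 (SE, edgeR adjusted p = 7.48e-05). NUCB2, the nesfatin precursor, had 181 to 255 CPM in the hypothalamus (median 198) and 271 to 466 CPM in the pituitary (median 402). The lowest pituitary library was above the highest hypothalamus library (log2 fold 0.95 ± 0.094 (SE, edgeR adjusted p = 6.23e-08)). NPY, the appetite-raising neuropeptide Y, had 52.4 to 167 CPM in the hypothalamus (median 75.8) and 31.1 to 114 CPM in the pituitary (median 50.4). It overlapped and did not pass, at a log2 fold of -0.54 ± 0.25 (SE, edgeR adjusted p = 0.0601). This call depended on the method. NPY passed toward the hypothalamus with RLE scaling (edgeR adjusted p = 0.04896) and with a replicate block (edgeR adjusted p = 0.0272). It also passed in DESeq2 (adjusted p = 0.0351) and limma-voom (adjusted p = 0.0437), but not with upper-quartile scaling, no scaling factor, no filter or no covariate. GAL, TAC1, PMCH, BDNF, NMU and RLN3 did not pass in edgeR's test with RFI group as covariate, at log2 folds of -1.01 to 0.90. BDNF passed toward the hypothalamus in limma-voom (adjusted p = 0.0212) and with a replicate block (edgeR adjusted p = 0.0283). Without the 5 libraries NPY, TAC1 and BDNF passed toward the hypothalamus at -0.78, -1.63 and -2.18, and RLN3 passed toward the pituitary at 0.55, the largest edgeR adjusted p of these being 0.0164.

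Receptors by which the pituitary is addressed were mostly higher there. Of 31 receptors and feedback genes tested, 22 (71.0%) were higher in the pituitary, 6 (19.4%) in the hypothalamus and 3 did not pass. The shares over all genes were 38.3% and 32.6%. The median log2 fold was 1.80 against 0.074 over all genes. AVPR1B, a vasotocin receptor of corticotrophs, had 0 to 0.265 CPM in the hypothalamus (median 0) and 66.004 to 303 CPM in the pituitary (median 179). GHRHR, the receptor for growth hormone releasing hormone, had 0 to 0.39 CPM in the hypothalamus (median 0.227) and 49.4 to 372 CPM in the pituitary (median 186). TRHR, the receptor for TRH, had 0.0884 to 1.10 CPM in the hypothalamus (median 0.438) and 10.8 to 41.7 CPM in the pituitary (median 23.1). None of the 3 overlapped, and their log2 folds were 10.89 ± 0.45, 9.82 ± 0.42 and 5.51 ± 0.33 (SE), with edgeR adjusted p values of 1.21e-12, 1.39e-12 and 1.17e-10. CRHR1 and CRHR2, the receptors for CRH, had smaller log2 folds of 1.11 ± 0.29 and 1.14 ± 0.15 (SE). Of the pair only CRHR2 did not overlap, with 8.56 to 13.5 CPM in the hypothalamus (median 12.04) and 14.8 to 36.9 CPM in the pituitary (median 26.3). DRD2, the dopamine receptor of lactotrophs, had 1.68 to 12.3 CPM in the hypothalamus (median 3.71) and 16.3 to 59.9 CPM in the pituitary (median 35.1). No hypothalamus library reached the pituitary range, and the log2 fold was 3.10 ± 0.32 (SE, edgeR adjusted p = 1.31e-07). Among somatostatin receptors SSTR5 was higher in the pituitary (log2 fold 1.80 ± 0.17), SSTR3 and SSTR4 were higher in the hypothalamus (-2.49 ± 0.43 and -1.94 ± 0.32) and SSTR2 did not pass (0.34 ± 0.27, SE in each case).

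Feedback receptors for steroids followed the releasing factor receptors. ESR1, estrogen receptor alpha, had 0.177 to 1.26 CPM in the hypothalamus (median 0.568) and 26.6 to 74.6 CPM in the pituitary (median 38.8). All 10 pituitary libraries were the higher ones, at a log2 fold of 6.21 ± 0.31 (SE, edgeR adjusted p = 1.27e-11). PGR, the progesterone receptor, had a log2 fold of 3.39 ± 0.36 without overlap, while ESR2, estrogen receptor beta, did not pass (-0.48 ± 0.35). NR3C1, the glucocorticoid receptor, was higher in the pituitary by 0.93 ± 0.13, and NR3C2, the mineralocorticoid receptor, was lower by a small amount (-0.17 ± 0.067, edgeR adjusted p = 0.0316), a direction that turned with no scaling factor (0.13). The receptors LEPR for leptin, PRLR for prolactin and GHR for growth hormone did not overlap and were higher in the pituitary at log2 folds of 2.25 ± 0.16, 2.92 ± 0.24 and 1.95 ± 0.13 (SE). INHBA, the activin subunit, had 0.894 to 2.65 CPM in the hypothalamus (median 1.79) and 16.6 to 47.9 CPM in the pituitary (median 38.5). The ranges did not overlap, and the log2 fold was 4.32 ± 0.23 (SE, edgeR adjusted p = 2.76e-11). FST, the activin antagonist follistatin, was higher in the pituitary at 3.98 ± 0.40 with overlap, and INHBB, the other activin subunit tested, was higher in the hypothalamus at -0.91 ± 0.29, a call lost with no scaling factor. The receptors of feeding peptides and opioids on hypothalamic neurons went the other way. Of 19 tested, 14 (73.7%) were higher in the hypothalamus and 2 (10.5%) in the pituitary, against 32.6% and 38.3% of all genes. Among them OPRD1, the delta opioid receptor, had a log2 fold of -3.53 ± 0.63, HCRTR2, an orexin receptor, -2.36 ± 0.57, and MC4R, the melanocortin receptor of appetite control, -1.94 ± 0.46 (SE). PRLHR and GFRAL were the pair higher in the pituitary, at 1.19 ± 0.34 and 1.204 ± 0.19 (SE).

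The machinery of peptide secretion was present in both tissues and differed gene by gene. CHGA (chromosome 5, 45084388 to 45094601), chromogranin A, a matrix protein of secretory granules, had 301 to 621 CPM in the hypothalamus (median 392) and 11742 to 39051 CPM in the pituitary (median 31693). It took a median of 3.42% of pituitary counts and 0.0358% of hypothalamus counts, did not overlap, and had a log2 fold of 6.12 ± 0.25 (SE, edgeR adjusted p = 6.29e-13). CHGB, chromogranin B, had 412 to 758 CPM in the hypothalamus (median 648) and 402 to 946 CPM in the pituitary (median 574). It did not pass, at a log2 fold of 0.0097 ± 0.15 (SE, edgeR adjusted p = 0.958) with a 95% interval of -0.31 to 0.33. The prohormone convertase PCSK1 had 16.9 to 54.8 CPM in the hypothalamus (median 30.8) and 153 to 408 CPM in the pituitary (median 233). There was no overlap, and the pituitary was higher by a log2 fold of 2.86 ± 0.22 (SE, edgeR adjusted p = 2.68e-09). The related convertase PCSK2 was higher in the hypothalamus at -0.97 ± 0.20, as was the granin SCG2 at -1.07 ± 0.20 (SE), both with overlap. Of the 18 genes of granins and prohormone processing 6 were called toward the pituitary and 6 toward the hypothalamus, 33.3% each. These shares stand near the 38.3% and 32.6% of all genes. Without the 5 libraries 6 were called toward the pituitary and 9 toward the hypothalamus. The median log2 fold of these genes went from -0.15 to -0.42 without the 5 libraries and was 0.13 with no scaling factor. Genes of protein folding and entry into the endoplasmic reticulum were shifted to the pituitary by small folds (median log2 0.61). Of 35 tested, 27 (77.1%, against 38.3% of all genes) were higher there and 2 in the hypothalamus. The largest fold was that of PDIA4, a disulfide isomerase, with 74.2 to 115 CPM in the hypothalamus (median 86.4) and 144 to 344 CPM in the pituitary (median 236). The lowest pituitary library was above the highest hypothalamus library (log2 fold 1.35 ± 0.12 (SE, edgeR adjusted p = 2.44e-08)). Cytosolic ribosomal proteins moved in the same direction, 50 of 65 (76.9%) higher in the pituitary and 0 in the hypothalamus (median log2 0.52). In 0 of them were the tissues free of overlap, whereas 10.9% of all genes were higher in the pituitary without overlap. The gene of largest fold in that list, RPL3L at 3.49 ± 0.71 (SE), is a muscle form of a ribosomal protein and was highest in pituitary high RFI library 2, as were MYH1D and MYH1B.

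Transcription factors known from pituitary cell lineages were mostly higher in the pituitary, 24 of 36 tested (66.7%, against 38.3% of all genes), and 6 were higher in the hypothalamus. In 20 of the 36 every pituitary library lay above every hypothalamus library, as it did in 10.9% of all genes. POU1F1 (chromosome 1, 94257934 to 94273544), the factor of somatotrophs, lactotrophs and thyrotrophs, had 1.67 to 4.39 CPM in the hypothalamus (median 2.49) and 201 to 699 CPM in the pituitary (median 497). Its log2 fold was 7.46 ± 0.26 (SE, edgeR adjusted p = 1.51e-13), with no overlap. TBX19, the factor of corticotrophs, had 0.0883 to 0.691 CPM in the hypothalamus (median 0.243) and 33.1 to 91.1 CPM in the pituitary (median 56.2) and a log2 fold of 7.59 ± 0.32 (SE, edgeR adjusted p = 1.21e-12). NR5A1, the factor of gonadotrophs, had 0.757 to 3.06 CPM in the hypothalamus (median 1.37) and 61.7 to 163 CPM in the pituitary (median 109) and a log2 fold of 5.96 ± 0.30 (SE, edgeR adjusted p = 1.27e-11). Neither overlapped, and the folds within low and high RFI were 7.49 and 7.69 for TBX19 and 5.96 and 5.97 for NR5A1. PITX1 and LHX3, factors of the early pituitary primordium, had log2 folds of 7.44 ± 0.43 and 7.45 ± 0.99 (SE) without overlap. LHX3 stood at 23.5 CPM in hypothalamus low RFI library 2 and at 0.432 CPM or less in the other hypothalamus libraries, and its log2 fold was 11.02 without the 5 libraries. That library is the one with the pineal markers, and their part in the LHX3 value was not tested. The placodal factors Six2, EYA1 and EYA4 had log2 folds of 5.96, 5.91 and 4.11, all without overlap. EGR1, an immediate early factor that acts in gonadotrophs, had 30.5 to 45.7 CPM in the hypothalamus (median 36.5) and 347 to 1489 CPM in the pituitary (median 602). The ranges did not overlap, and the log2 fold was 4.25 ± 0.28 (SE, edgeR adjusted p = 3.75e-10).

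Of the 6 lineage factors higher in the hypothalamus, OTX2, a factor of the embryonic head, had 11.6 to 101 CPM in the hypothalamus (median 19.03) and 1.00 to 10.3 CPM in the pituitary (median 2.09). Every hypothalamus library lay above every pituitary library, at a log2 fold of -3.28 ± 0.44 (SE, edgeR adjusted p = 2.36e-06). TCF7L2, RXRG, PAX7, GATA3 and SOX9 followed at log2 folds of -2.57, -2.21, -1.93, -1.53 and -0.57, with overlap, the call of SOX9 being lost with no scaling factor. GATA3 was thus lower in the pituitary. GATA2, its relative in thyrotrophs and gonadotrophs, had 9.18 to 19.7 CPM in the hypothalamus (median 13.7) and 28.7 to 78.5 CPM in the pituitary (median 51.2). No hypothalamus library reached the pituitary range, and the log2 fold was 1.78 ± 0.19 (SE, edgeR adjusted p = 1.21e-07). SOX2, a factor of pituitary stem cells and of neural progenitors, was 0.42 ± 0.087 higher in the pituitary (edgeR adjusted p = 0.000241) with overlap.

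Factors that pattern hypothalamic and other brain regions were more often higher in the hypothalamus, 26 of 56 tested (46.4%, against 32.6% of all genes). Another 12 (21.4%, against 38.3%) were higher in the pituitary and 18 did not pass. The list also holds SOX10, which is among the oligodendrocyte markers too. With no scaling factor 18 were higher in the hypothalamus and 15 in the pituitary. LHX9 and SOX14, factors of diencephalic neurons, had the largest hypothalamus folds, -4.03 ± 0.95 and -3.23 ± 0.64 (SE), and these became -7.48 and -4.93 without the 5 libraries. LHX9 reached 29.7 CPM in pituitary low RFI library 1, within its hypothalamus range of 20.5 to 46.9 CPM. POU3F3, POU3F4, LHX1 and LHX5, factors of developing neurons, were also higher in the hypothalamus, at log2 folds of -2.91, -2.11, -1.78 and -1.51. SIM1 and OTP, factors of the paraventricular nucleus, were low in both tissues and did not pass (-1.15 ± 0.51 and -0.82 ± 0.64, SE). SIM1 did pass toward the hypothalamus with RLE scaling (-1.17, edgeR adjusted p = 0.0464) and in DESeq2 (-1.193, adjusted p = 0.033). SIX3 (chromosome 3, 25943217 to 25946344), which acts in the forebrain and in the pituitary primordium, had 14.7 to 34.1 CPM in the hypothalamus (median 25.2) and 129 to 438 CPM in the pituitary (median 347). It was higher in the pituitary without overlap, at a log2 fold of 3.69 ± 0.20 (SE, edgeR adjusted p = 2.37e-11). NKX2-1 and RAX, made by ventral hypothalamic cells and by pituicytes of the posterior lobe, were higher in the pituitary at 1.52 ± 0.53 and 1.12 ± 0.15 (SE), with overlap. TBX2, TBX3 and NFIA were higher there too, at log2 folds of 1.91, 1.23 and 1.19. Only 2 of 35 HOX genes passed the filter on low counts, HOXB7 and HOXB2, and both were higher in the hypothalamus (-3.26 ± 0.56 and -1.14 ± 0.43, SE). The call of HOXB2 was lost with no scaling factor, in limma-voom and with a replicate block. By protein family in the deposited annotation, the homeobox family had 28 of 74 tested genes higher in the pituitary (37.8%) and 26 lower (35.1%). These shares of calls stand near the 38.3% and 32.6% of all genes, but large folds were more common. At least 4-fold differences were had by 21 of the 74 toward the pituitary and 9 toward the hypothalamus, against 7.31% and 4.29% of all genes. The basic helix-loop-helix family had 26 (43.3%) of 60 called higher in the pituitary and 21 (35%) called lower. The forkhead family leaned to the pituitary with 19 (59.4%) against 6 (18.8%) of 32.

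**Figure D4:**
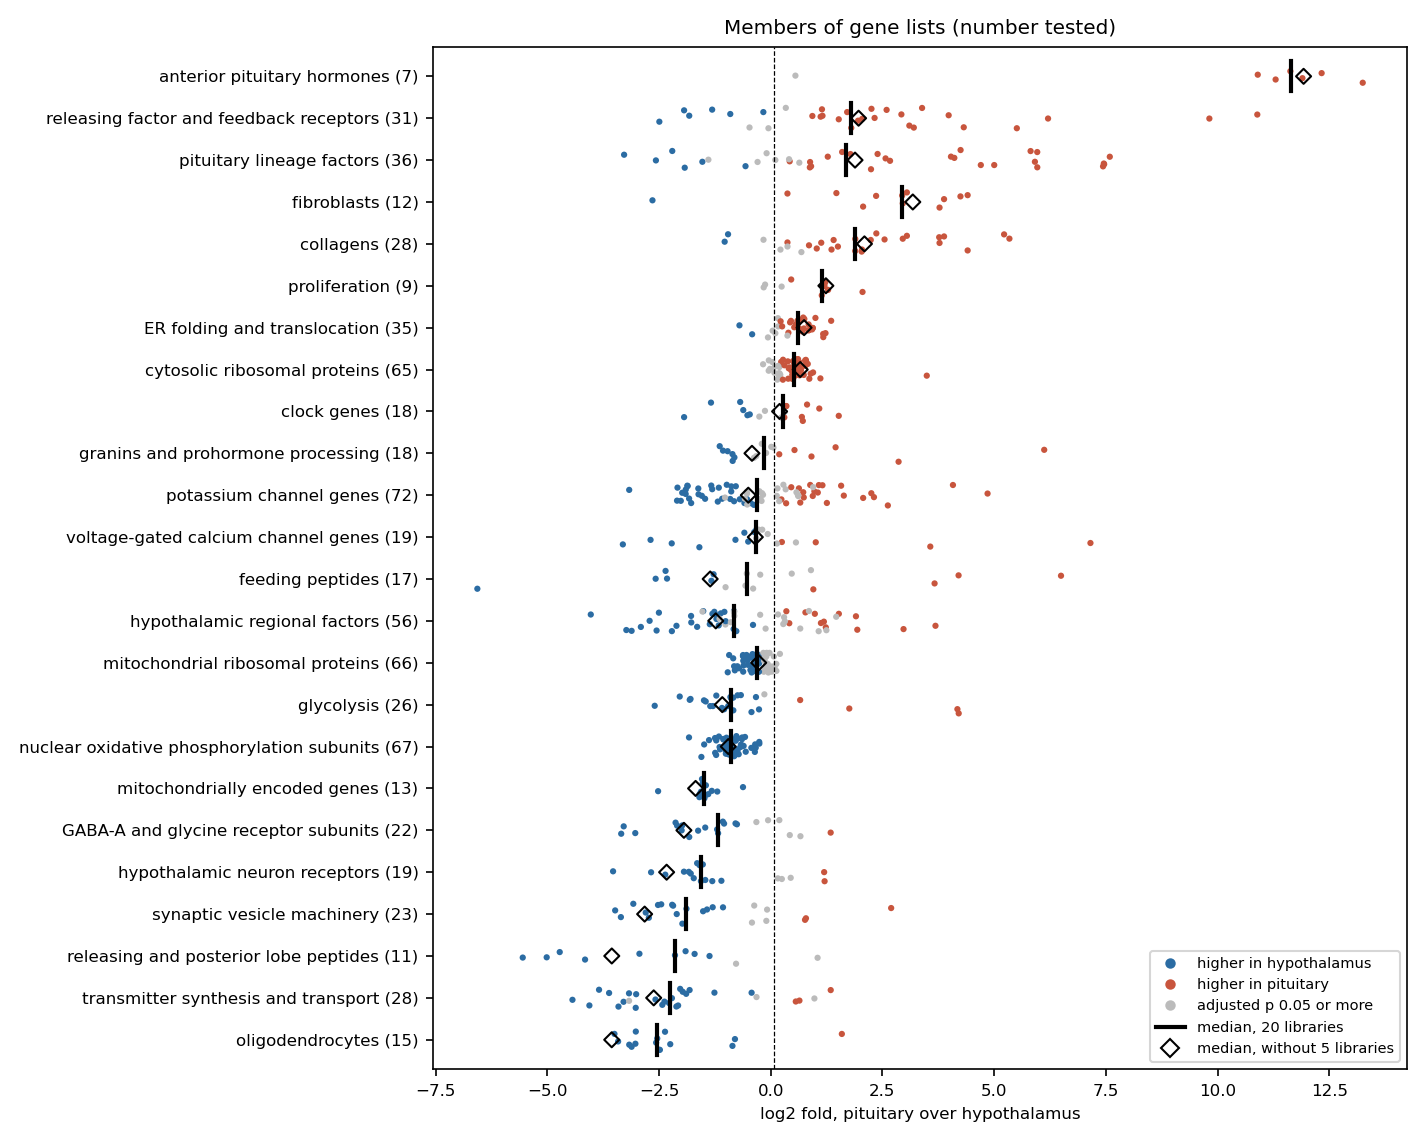
Log2 fold of pituitary over hypothalamus (x) of each tested member of 24 gene lists (y), 1 point per gene coloured by call, with a black bar at the list's median over all 20 libraries and an open diamond at the median without the 5 libraries that stood apart. The dashed line is the median of all genes tested, 0.074; the oxidative phosphorylation lists lie wholly to its left and the anterior pituitary hormones furthest to its right.

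Ion channel genes were called in both directions. Of 72 potassium channel genes tested, 31 were higher in the hypothalamus, 22 in the pituitary and 19 did not pass. These shares, 43.1% and 30.6%, stand against 32.6% and 38.3% over all genes, and with no scaling factor the counts turned to 24 and 26. KCNJ16, an inward rectifier subunit, had 0.894 to 3.06 CPM in the hypothalamus (median 1.82) and 22.6 to 84.8 CPM in the pituitary (median 50.8). It did not overlap and had the largest pituitary fold of the potassium channels, 4.85 ± 0.28 (SE, edgeR adjusted p = 5.9e-11). KCNE3, KCNQ5 and KCNH8, a regulatory subunit and a pair of voltage-gated channels, followed at 4.08 ± 0.51, 2.62 ± 0.26 and 2.31 ± 0.24 (SE), none with overlap. KCNS1, a silent modifier of delayed rectifiers, had 14.6 to 28.5 CPM in the hypothalamus (median 23.1) and 0.0787 to 13.4 CPM in the pituitary (median 1.54). The lowest hypothalamus library was above the highest pituitary library (log2 fold -3.17 ± 0.50 (SE, edgeR adjusted p = 1.61e-05)). KCNC1, KCNS2 and KCNJ4 were next on the hypothalamus side, at log2 folds of -2.10, -2.09 and -2.02, all overlapping. SCN9A, a voltage-gated sodium channel, had 13.2 to 23.1 CPM in the hypothalamus (median 16.04) and 62.3 to 383 CPM in the pituitary (median 123.3). It was higher in the pituitary without overlap (log2 fold 3.10 ± 0.27 (SE, edgeR adjusted p = 1.26e-08)), whereas the brain subunits SCN2A and SCN8A were higher in the hypothalamus at -1.22 ± 0.23 and -1.196 ± 0.31 (SE). SCN11A, a channel of sensory neurons, had a fold of 5.85 ± 1.35, but its pituitary values ran from 0 to 476 CPM, the highest in low RFI 2. Sensory ganglion markers were highest in the same library. The fold was 4.09 without the 5 libraries and did not pass in limma-voom (adjusted p = 0.219).

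Of 19 voltage-gated calcium channel genes, 9 (47.4%) were higher in the hypothalamus and 4 (21.1%) in the pituitary, against 32.6% and 38.3% of all genes. The counts were 5 and 5 with no scaling factor and 6 and 5 with upper-quartile scaling. CACNA2D1, an auxiliary subunit, had 120.1 to 185 CPM in the hypothalamus (median 149.5) and 229 to 399 CPM in the pituitary (median 291). There was no overlap, and the pituitary was higher by a log2 fold of 1.01 ± 0.10 (SE, edgeR adjusted p = 7.89e-08). CACNG3, which accompanies AMPA receptors, had 41.8 to 86.001 CPM in the hypothalamus (median 72.6) and 1.34 to 29.5 CPM in the pituitary (median 3.85). The tissues did not overlap, with a log2 fold of -3.31 ± 0.43 (SE, edgeR adjusted p = 1.75e-06). CACNA1S, the channel of skeletal muscle, was higher in the pituitary at 3.57 ± 0.59, with 0.903 to 32.2 CPM among the pituitary pools. Among HCN and TRP channels, TRPM6 and TRPA1 were higher in the pituitary without overlap (3.19 ± 0.20 and 2.94 ± 0.25, SE) and TRPM2 and HCN2 were higher in the hypothalamus (-2.24 ± 0.63 and -1.74 ± 0.32, SE). TRPA1 had 2.82 to 7.69 CPM in the hypothalamus (median 4.09) and 13.1 to 82.5 CPM in the pituitary (median 33.3).

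Receptors, enzymes and transporters of neurotransmitters were mostly higher in the hypothalamus, against 32.6% over all genes. That was so for 16 of 22 GABA-A and glycine receptor subunits, 11 of 16 ionotropic glutamate receptor subunits and 7 of 8 metabotropic glutamate and GABA-B receptors. GABRG3 and GRIN3B were the subunits higher in the pituitary, at 1.34 ± 0.19 and 1.82 ± 0.25 (SE). GRIN1, the obligate subunit of NMDA receptors, had 334 to 553 CPM in the hypothalamus (median 395) and 2.08 to 375 CPM in the pituitary (median 15.6). Its log2 fold was -2.52 ± 0.75 (SE, edgeR adjusted p = 0.00565), and -5.01 without the 5 libraries. Of 28 genes for transmitter synthesis and transport, 22 were higher in the hypothalamus and 3 in the pituitary. SLC32A1 (chromosome 20, 3658590 to 3661843), the vesicular transporter of GABA and glycine, had 146 to 335 CPM in the hypothalamus (median 297) and 0.24 to 147 CPM in the pituitary (median 7.08). It overlapped narrowly through pituitary low RFI library 1, and its log2 fold was -3.41 ± 0.78 (SE, edgeR adjusted p = 0.000677), -5.73 without the 5 libraries. CHAT and SLC5A7, which make acetylcholine and take up choline, did not overlap and had log2 folds of -4.06 ± 0.49 and -4.44 ± 0.51 (SE). TH, the rate-limiting enzyme of dopamine synthesis, had 2.74 to 39.99 CPM in the hypothalamus (median 7.15) and 0 to 5.02 CPM in the pituitary (median 0.212) and a log2 fold of -3.85 ± 0.71 (SE, edgeR adjusted p = 9.26e-05). TPH1, an enzyme of serotonin synthesis prominent in the pineal gland, did not pass (log2 fold -3.17 ± 1.82 (SE, edgeR adjusted p = 0.126)). It reached 912 CPM in hypothalamus low RFI library 2, against 2.47 CPM or less in the other 9. Without that library the log2 fold was 1.49 (edgeR adjusted p = 0.00648), toward the pituitary. With all libraries and no RFI covariate it passed in the other direction, toward the hypothalamus (-5.235, edgeR adjusted p = 0.00428). Synaptic vesicle genes followed, 16 of 23 higher in the hypothalamus, with SYT2 at -3.48 ± 0.61 and VAMP1 at -3.08 ± 0.56. UNC13B, a priming factor of vesicles, was the exception of largest size, with 11.3 to 19.4 CPM in the hypothalamus (median 15.3) and 58.8 to 159 CPM in the pituitary (median 96.2). No hypothalamus library reached the pituitary range, and the log2 fold was 2.69 ± 0.17 (SE, edgeR adjusted p = 2.82e-10).

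Genes of oxidative phosphorylation were higher in the hypothalamus throughout, and other lists of energy metabolism in part. All genes of the mitochondrial genome together took 13.9% to 20.1% of a hypothalamus library's counts (median 15.97%) and 5.18% to 10.96% of a pituitary library's counts (median 6.95%). The groups did not overlap, and the mean difference was -8.64 percentage points (two-sided permutation test with 100000 resamples, p = 2e-05, the smallest it can give; 3e-05 adjusted over the 3 library measures tested). All 13 mitochondrially encoded protein genes were higher in the hypothalamus, 12 of them without overlap, at a median log2 fold of -1.49, with ATP8, a subunit of ATP synthase, furthest at -2.52 ± 0.31 (SE). COX3, a subunit of cytochrome oxidase, had 18966 to 34272 CPM in the hypothalamus (median 23907) and 6638 to 14063 CPM in the pituitary (median 9224) and a log2 fold of -1.32 ± 0.15 (SE, edgeR adjusted p = 4.8e-07). The nuclear genes of oxidative phosphorylation went with them, 67 of 67 being higher in the hypothalamus and 50 without overlap, against 32.6% and 8.04% of all genes. Their median log2 fold was -0.89 (-0.82 within low RFI, -0.97 within high RFI). NDUFA4, of complex IV, had the largest of these, with 283 to 489 CPM in the hypothalamus (median 379) and 57.8 to 251 CPM in the pituitary (median 85.03) and -1.83 ± 0.23 (SE, edgeR adjusted p = 1.06e-06). Mitochondrial ribosomal proteins showed a smaller shift, 40 of 66 higher in the hypothalamus at a median of -0.31, which became -0.016 with no scaling factor (19 higher and 15 lower in the hypothalamus). The share of counts in a library's 10 most abundant genes did not differ beyond the spread (17.6% ± 1.42 in the hypothalamus and 16.8% ± 2.68 in the pituitary, SD, n = 10 each; permutation p = 0.395). The number of genes with at least 1 count was higher in the pituitary, 20522 to 21038 against 19981 to 20376, although its libraries were shallower (permutation p = 2e-05).

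In glycolysis 21 of 26 genes (80.8%) were higher in the hypothalamus and 4 (15.4%) in the pituitary, against 32.6% and 38.3% of all genes. ENO2 and ALDOC, the neuronal enolase and the brain aldolase, had log2 folds of -2.60 ± 0.51 and -2.04 ± 0.31 (SE) without overlap. LDHB, the lactate dehydrogenase subunit of oxidative tissues, had 739 to 1224 CPM in the hypothalamus (median 1009) and 122.7 to 676 CPM in the pituitary (median 216). The lowest hypothalamus library was above the highest pituitary library (log2 fold -1.81 ± 0.25 (SE, edgeR adjusted p = 2.97e-06)). PDK4, the kinase that shuts pyruvate dehydrogenase when fat is burnt, had 16.2 to 81.97 CPM in the hypothalamus (median 21.1) and 149.7 to 702 CPM in the pituitary (median 574). It ran against the list, with every pituitary library above every hypothalamus library and a log2 fold of 4.18 ± 0.34 (SE, edgeR adjusted p = 6.09e-09), 3.88 within low RFI and 4.48 within high RFI. PFKM, the muscle phosphofructokinase, was higher in the pituitary at 4.21 ± 0.67 with overlap, from 1.05 to 96.6 CPM among the pools. Cholesterol synthesis genes were higher in the hypothalamus in 13 of 22 cases (59.1%) and in the pituitary in 3 (13.6%). With no scaling factor these counts were 8 and 6. Toward the hypothalamus the list was led by SC5D at -1.51 ± 0.15 and CYP51A1 at -1.14 ± 0.14 (SE). The cholesterol exporter ABCA1 had 7.41 to 22.3 CPM in the hypothalamus (median 12.2) and 72.5 to 152 CPM in the pituitary (median 97.2). All 10 pituitary libraries were the higher ones, at a log2 fold of 2.94 ± 0.20 (SE, edgeR adjusted p = 5.65e-10). Of 26 genes of fatty acid synthesis and oxidation 18 were higher in the hypothalamus. The largest folds were those of FADS6, a desaturase, and of GAL3ST1, FA2H and UGT8, which make the galactolipids of myelin, at -3.55, -2.89, -2.57 and -2.48. PPARG, the fat cell regulator, had low values of 0.177 to 1.75 CPM in the hypothalamus (median 0.567) and 2.10 to 13.5 CPM in the pituitary (median 7.16). Every pituitary library lay above every hypothalamus library, at a log2 fold of 3.43 ± 0.38 (SE, edgeR adjusted p = 2.67e-07). Among thyroid hormone genes DIO2, which activates the hormone, was higher in the pituitary at 0.91 ± 0.15, as were the receptor THRB (1.52 ± 0.22, no overlap) and the thyrotropin receptor TSHR (1.81 ± 0.33). The other receptor, THRA, did not pass (-0.053 ± 0.078, SE).

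Markers of brain cells were mostly higher in the hypothalamus but were not absent from pituitary libraries. Of 15 oligodendrocyte markers 14 (93.3%, against 32.6% of all genes) were higher in the hypothalamus and 1 in the pituitary. Their median log2 fold was -2.54 (-3.56 without the 5 libraries). MBP, myelin basic protein, had 13551 to 32743 CPM in the hypothalamus (median 24014) and 299 to 12506 CPM in the pituitary (median 1651). No pituitary library reached the hypothalamus range, and the log2 fold was -3.02 ± 0.56 (SE, edgeR adjusted p = 9.46e-05). As an unscaled share of counts it overlapped, at 1.29% in pituitary low RFI library 1 and 1.16% in hypothalamus low RFI library 2, both among the 5 libraries. Summed neuron markers ran from 4762 to 6842 CPM in hypothalamus libraries and from 612 to 4619 CPM in pituitary libraries. Of 10 markers 9 were higher in the hypothalamus, with SNAP25, a synaptic membrane protein, at -2.73 ± 0.54 (-4.42 without the 5 libraries). Of 14 markers of astrocytes and ependyma 11 (78.6%) were higher in the hypothalamus, 2 in the pituitary and 1 did not pass. GFAP, the glial intermediate filament, had 1523 to 3665 CPM in the hypothalamus (median 2424) and 35.4 to 1180.1 CPM in the pituitary (median 163), at a log2 fold of -2.96 ± 0.51 (SE, edgeR adjusted p = 4.59e-05). Every tested marker of these 3 lists had a count in every pituitary library, and the parts of the posterior lobe, its pituicytes and brain tissue in these levels were not tested. Thalamus markers had a median log2 fold of -3.54, -6.21 without the 5 libraries. GBX2, a thalamic factor, reached 37.8 CPM in pituitary low RFI library 1, against 0.315 CPM or less in the other 9 pituitary libraries. Of 7 cerebellum markers 2 were higher in the pituitary and 0 in the hypothalamus, against 1 and 5 without the 5 libraries. The pair were FAT2 (3.47 ± 1.39, 0.71 without the 5 libraries) and PAX6 (2.90 ± 0.20, 3.16). FAT2 stood at 123.3 CPM in pituitary high RFI library 4 and at most at 2.62 CPM in the other pituitary libraries. PAX6 had 6.61 to 20.5 CPM in the hypothalamus (median 11.8) and 47.8 to 132 CPM in the pituitary (median 99.4) and did not overlap.

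**Figure D5:**
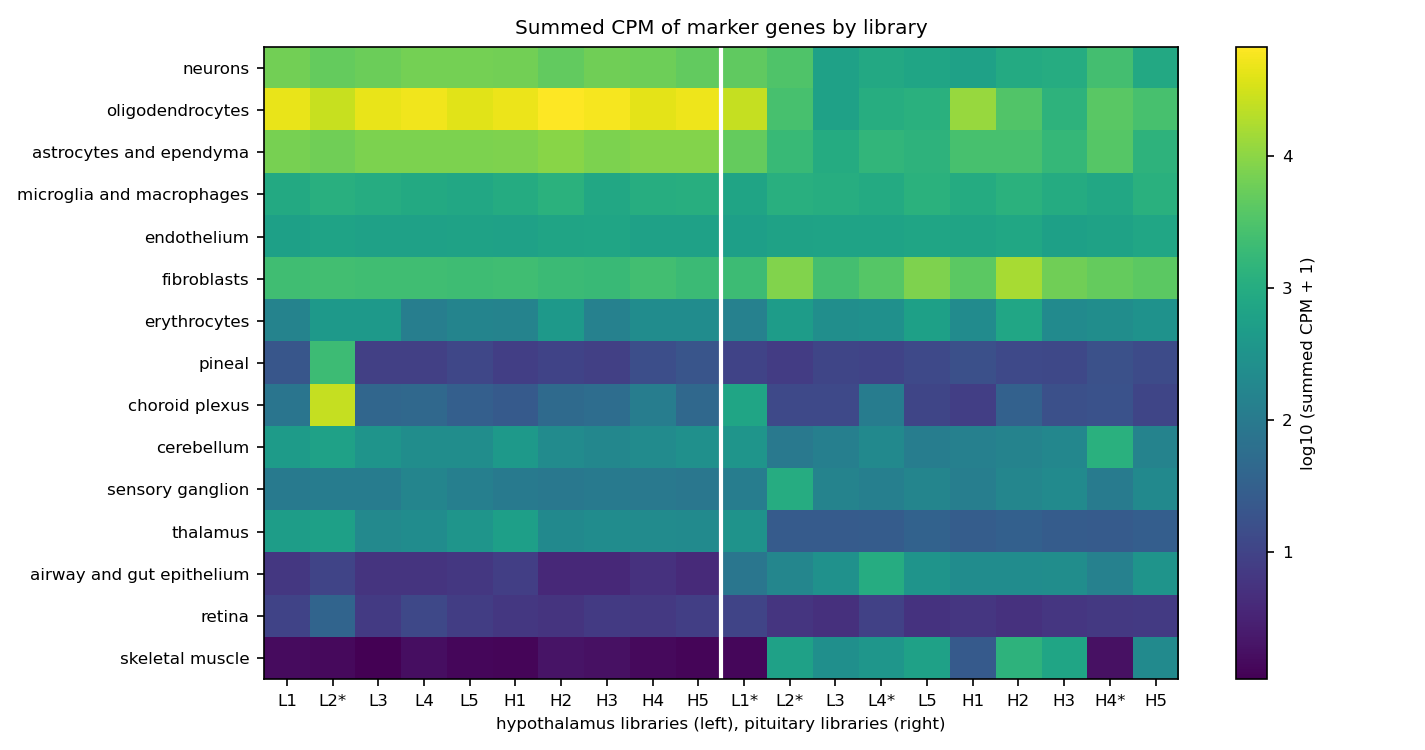
Summed CPM of 15 marker lists (rows) in each of the 20 libraries (columns), as log10 of CPM plus 1 by colour; the vertical line separates the tissues and asterisks mark the 5 libraries that stood apart. In scaled CPM, neuron, oligodendrocyte and astrocyte rows are higher in every hypothalamus library than in any pituitary library. The margin is narrow for neurons (4762 against 4619 CPM) and oligodendrocytes (26207 against 25613 CPM). As unscaled shares of counts, both sums were higher in pituitary low RFI 1 than in hypothalamus low RFI 2. Single bright cells show pineal and choroid plexus markers in hypothalamus low RFI 2, sensory ganglion markers in pituitary low RFI 2 and cerebellum markers in pituitary high RFI 4.

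Connective tissue genes were higher in the pituitary. Of 12 fibroblast markers 11 (91.7%) were higher there, at a median log2 fold of 2.95, and of 28 collagen genes 22 (78.6%), at a median of 1.89. Over all genes 38.3% were higher in the pituitary. COL1A1, the main chain of collagen I, had 39.7 to 141 CPM in the hypothalamus (median 106) and 233 to 6136 CPM in the pituitary (median 1660.1). All 10 pituitary libraries were the higher ones, at a log2 fold of 4.41 ± 0.49 (SE, edgeR adjusted p = 2.65e-07). The exception among fibroblast markers was THY1, also made by neurons, at -2.65 ± 0.43 (SE). COL17A1, a collagen of epithelial attachment, had 0.284 to 1.99 CPM in the hypothalamus (median 1.06) and 21.4 to 67.6 CPM in the pituitary (median 43.4). Every pituitary library lay above every hypothalamus library, at a log2 fold of 5.34 ± 0.30 (SE, edgeR adjusted p = 5.9e-11). EPCAM and CDH1, adhesion proteins of epithelia, which the secretory cells of the anterior lobe are, had log2 folds of 5.84 ± 0.34 and 6.44 ± 0.41 (SE) without overlap. KRT5 and PIGR, the other airway and gut epithelium markers, had folds of 4.14 ± 0.95 and 3.72 ± 1.53. PIGR reached 205 CPM in pituitary low RFI library 4, against 1.08 CPM or less in the other 9. Its fold was 0.51 (edgeR adjusted p = 0.219) without the 5 libraries. Endothelial markers were divided. KDR, the receptor for vascular growth factor, had 15.8 to 28.5 CPM in the hypothalamus (median 22.1) and 45.3 to 114 CPM in the pituitary (median 90.1). The ranges did not overlap, and the log2 fold was 1.98 ± 0.15 (SE, edgeR adjusted p = 2.18e-09). VWF was higher in the hypothalamus without overlap (-0.96 ± 0.11 (SE, edgeR adjusted p = 3.31e-07)). Of 10 markers of microglia and macrophages 6 did not pass, 3 (30%) were higher in the pituitary and 1 in the hypothalamus. That pituitary share was below the 38.3% of all genes. The marker higher in the hypothalamus was CSF1R, the growth factor receptor of these cells, at -0.80 ± 0.12 without overlap. Without the 5 libraries 6 were higher in the pituitary and 1 in the hypothalamus. Proliferation genes were higher in the pituitary in 6 of 9 cases (66.7%), TOP2A at 1.28 ± 0.16 and MCM3 at 2.05 ± 0.19 both without overlap. Of 18 clock genes 8 were higher in the pituitary and 6 in the hypothalamus, shares near the 38.3% and 32.6% of all genes. PER2 was at 1.52 ± 0.12 without overlap and NR1D1 at -1.34 ± 0.31 with overlap (SE).

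Levels per gene length, as the authors' FPKM, place the tissues' leading genes on 1 scale. In the hypothalamus mitochondrial genes led the protein-coding genes by mean FPKM, with COX3 first at 31478 ± 5556 (SD, n = 10). In the pituitary GH was highest at 39051 ± 17517, followed by CHGA at 14291 ± 4379. COX3 (12334 ± 3320.2) and POMC (12323 ± 4605) came next. The SD ranges of CHGA, COX3 and POMC overlapped. All 3 were measured in the same 10 libraries, and the differences between them were not tested. PRL stood ninth at 3799.8 ± 1864 FPKM.

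Some abundant genes did not separate the tissues. With a mean of at least 50 CPM in both, the smallest folds were those of MARF1, MOSPD1, FBXO32, GPR107, RIOK3 and JMJD1C, chosen for their small fold and so given as a description only. With no scaling factor their folds took the general shift, and all but MARF1 passed. MOSPD1, for example, had 48.7 to 67.96 CPM in the hypothalamus (median 57.6) and 49.3 to 66.02 CPM in the pituitary (median 58.1), with a 95% interval of the log2 fold of -0.16 to 0.16. GPR107 had 47.7 to 59.7 CPM in the hypothalamus (median 54.1) and 45.96 to 64.1 CPM in the pituitary (median 54.96), with an interval of -0.14 to 0.14.

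No gene's tissue fold passed edgeR's test of dependence on RFI group (DESeq2 called 2). The smallest unadjusted interaction p toward a higher log2 fold in high RFI was that of DDC, which makes dopamine and serotonin from their precursors. Its tissue fold was -4.21 within low RFI and -0.14 within high RFI (difference -4.06 ± 0.88, SE, unadjusted p = 0.000196, edgeR adjusted p = 1.00). In low RFI birds DDC had 11.2 to 139.8 CPM in the hypothalamus against 2.52 to 6.01 CPM in the pituitary. In high RFI birds it had 18.4 to 27.5 CPM against 4.58 to 60.9 CPM, so that the tissues overlapped in high RFI and not in low RFI. The 60.9 CPM was that of pituitary high RFI library 4, against at most 21.2 CPM in the other 4. Without that library the fold within high RFI was -1.07 and the difference -3.13 ± 0.72 (SE, unadjusted p = 0.000386). MRC1, the mannose receptor of macrophages, and SLCO1C1 came next, at differences of -1.65 ± 0.42 and -6.08 ± 1.58 (SE). SLCO1C1, a carrier of thyroid hormone, reached 46.5 CPM in hypothalamus low RFI library 2, and its difference was -3.21 without that library. It did not pass between the tissues over all libraries and passed at 2.995 without hypothalamus low RFI library 2 (edgeR adjusted p = 0.000818). Toward a higher log2 fold in low RFI the smallest were CCDC130, PYGO2 and the thalamic GBX2 described above, at differences of 0.70 ± 0.19, 0.50 ± 0.15 and 6.25 ± 2.10 (SE). Their edgeR adjusted p was also 1.00, and the GBX2 difference was 1.08 without pituitary low RFI library 1.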

How the data were processed

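The deposited table holds, per the labels, read counts and FPKM values (fragments per kilobase of gene and per unit of depth) of 28021 chicken genes in 20 libraries. Per the submitters' processing notes HISAT2 2.0.5, DESeq2 1.20.0 and build GRCg6a were used, with no role given; RNA came from TRIzol extraction at an integrity (RIN) of 7.7 or more, per the labels' protocols. The deposited counts were whole numbers, and the authors' FPKM values equal those counts divided by gene length and a median-ratio scaled library size. The sources used here do not state whether counting used strand or how reads shared between overlapping or near-identical genes were handled. Paralogs such as the myosins and ribosomal proteins carry that uncertainty.

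From the counts, edgeR 4.0.16 (R 4.3.3) gave TMM scaling, the default filter on low counts (16747 genes kept), CPM, and a quasi-likelihood test with Benjamini-Hochberg adjustment over all genes kept, for tissue with RFI group as covariate and for tissue within each RFI group and their difference in a fit of 4 group means. CPM and FPKM medians and ranges are over 10 libraries a tissue, and errors of folds are SE from the fit. Folds against a group with 0 counts are bounds against 3 counts over that group's libraries. The 3 library measures (mitochondrial share, share of the 10 most abundant genes, genes with a count) were tested with two-sided permutation tests of 100000 resamples (SciPy 1.17.1). Alternatives were RLE, upper-quartile and no scaling, no filter, DESeq2 1.42.0, limma-voom (limma 3.58.1), no covariate, a replicate block, single RFI groups, each library left out, and 5 libraries left out. The test was first tried on simulated counts with known changes.

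No labels tie pools to birds across tissues, and separate birds per pool are as the series describes them. The p-values thus measure the spread between libraries, each taken as a pool, which is not settled for the pituitary. Replicates differed by more than counting noise in every pair (chi-square per degree of freedom 7.86 to 195). Of the genes 705 took their symbol from a RefSeq table by identifier. The libraries compared and the gene lists were chosen with earlier results of these data known. Named genes were, by rule, the 12 protein-coding genes of largest fold per direction with a mean of at least 50 CPM, all tested members of the hormone, peptide, receptor, factor and marker lists, of every other list up to 4 per direction of largest fold and 2 uncalled, 6 of smallest fold, 3 per direction of smallest interaction p, and 10 per tissue of highest FPKM. Some of these genes are not reported here.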

Additional observations from a re-analysis of the deposited data

Results flagged for a closer look

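Within the 10 libraries of a tissue, a single library lay far from the other 9 in 16 of 168 sets of values examined. The sets were chosen with earlier results of these data known and share their libraries, so no chance rate can be set beside this count. A library was noted where its gap to the nearest other library, on the log2 scale, was more than 0.47 of the tissue's whole range. Of the 16, 7 were in hypothalamus low RFI library 2, 4 in pituitary low RFI library 1, 3 in pituitary low RFI library 2, and 1 each in pituitary high RFI library 4 and hypothalamus low RFI library 5.

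Hypothalamus low RFI library 2 was high in pineal markers (2104 CPM summed), choroid plexus markers (25799 CPM summed) and retina markers (37.95 CPM summed, a set of few genes that photoreceptor-like pineal cells also use). It was also high in OTX2 (101 CPM), PDK4 (82.0 CPM) and NUCB2 (255 CPM), and low in oligodendrocyte markers (26207 CPM summed). Pituitary low RFI library 1 was high in thalamus markers (319 CPM summed) and CRH (16.995 CPM), and low in GH (5572 CPM) and PAX6 (47.8 CPM). Pituitary low RFI library 2 was high in sensory ganglion markers (1023 CPM summed) and SCN9A (383 CPM), and low in GHRH (0.24 CPM). Pituitary high RFI library 4 was high in cerebellum markers (1196 CPM summed). Hypothalamus low RFI library 5 was low in GNRH1 (0.086 CPM), a gene near the limit of counting. Pituitary low RFI library 4, although left out among the 5, was not noted by this measure. The part of other tissues in these values was not tested.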

How the results depend on the processing

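The number of genes called between the tissues, 11886, stayed within 1.5 times under every alternative run except a fit of the low RFI libraries alone, which called 7197 (4046 higher in the pituitary and 3151 in the hypothalamus, with 10 libraries); the high RFI libraries alone called 9955. The other fits gave 11708 to 13328 calls, the lowest with a replicate block and the highest with no filter, and leaving out each library in turn gave 11623 to 12344 (6244 to 6659 higher in the pituitary and 5329 to 5685 in the hypothalamus). With no scaling factor 70.1% of calls were toward the pituitary, against 54.0%. Within low RFI the calls ran from 8196 to 10528 and within high RFI from 9227 to 10416 over single libraries left out, with 10451 and 11357 without the 5 libraries. The interaction of tissue and RFI had 0 calls in every edgeR fit and in limma-voom, and 2 in DESeq2, whose cause was not tested. The mitochondrial share differed by -9.03 to -8.19 percentage points, the share of the 10 most abundant genes by -1.21 to -0.399 and the number of genes with a count by 495 to 552 over single libraries left out; without the 5 libraries these were -9.08, 1.28 and 490.

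The numbers of the libraries were not taken as pairs, as no labels tie them to shared birds. Same-numbered libraries of the tissues did not deviate together from their group means (correlations of -0.31 to 0.25, 1 of 10 over 0.1). These deviations also hold whatever set single libraries apart, so the correlations cannot decide whether the numbers are pairs. The fit with a replicate block called 11708 genes, 0 for the interaction, and FAT2, PIGR, HOXB2 and CCDC130 lost their call in it.

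Among the called of 190 genes named, NR3C2 reversed with no scaling factor (0.13) and CCDC130 in the high RFI libraries alone (-0.015), the cause being not tested. Of 5857 alternative gene results 5735 kept their call, direction being compared only for genes called over all libraries. TPH1, not called over all libraries with RFI group as covariate, was called in opposite directions by other fits. It was called toward the pituitary without the 5 libraries (1.33, edgeR adjusted p = 0.0201). With no RFI covariate it was called toward the hypothalamus (-5.235, edgeR adjusted p = 0.00428). Of 124 list medians 19 moved by more than the spread between libraries, 11 of them under no scaling factor and 8 without the 5 libraries, the largest being thalamus (-6.21) and metabotropic glutamate and GABA-B receptors (-3.81). Depth limits genes with few counts in a library, such as GNRH1 and SIM1.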

Other observations

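Over all genes tested 38.3% were higher in the pituitary and 32.6% in the hypothalamus, and some gene classes outside the lists above differed from these shares. Of 55 small nucleolar RNA genes tested 37 were higher in the pituitary and 1 in the hypothalamus, at a median log2 fold of 0.79, and 17 did not pass. In 1 of the 55 every pituitary library lay above every hypothalamus library, against 10.9% of all genes. The small nucleolar RNA genes lie inside introns of other genes and are partly lost from libraries of long RNA, so their counts are uncertain. Long non-coding RNA genes were near the called shares of all genes, 339 of 995 higher in the pituitary and 323 in the hypothalamus. At least 4-fold differences were more common among them, in 120 of the 995 toward the pituitary and 91 toward the hypothalamus. Over all genes these were 7.31% and 4.29%. Of 198 rhodopsin-type receptor genes by the deposited family annotation 93 (46.97%) were higher in the hypothalamus and 54 (27.3%) in the pituitary. Cadherin family genes, many of them adhesion proteins of neurons, had 29 of 70 (41.4%) higher in the hypothalamus and 14 in the pituitary. Among nicotinic acetylcholine receptor subunits 5 of 10 were higher in the hypothalamus and 3 in the pituitary, CHRNA1, the muscle subunit, among the latter at 1.09 ± 0.27 (SE).

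HAPLN4, a link protein of the matrix around neurons, had 48.4 to 117 CPM in the hypothalamus (median 94.2) and 0 to 61.8 CPM in the pituitary (median 0.529) and a log2 fold of -4.22 ± 0.94 (SE, edgeR adjusted p = 0.000557). ERMN, a cytoskeletal protein of oligodendrocytes, had 198 to 475 CPM in the hypothalamus (median 338) and 3.22 to 135 CPM in the pituitary (median 7.81) and a log2 fold of -3.50 ± 0.69 (SE, edgeR adjusted p = 0.000173). Pituitary low RFI library 1 held the highest pituitary value of both, within the hypothalamus range for HAPLN4 and below it for ERMN. Their folds were -7.68 and -4.31 without the 5 libraries. APOH, an apolipoprotein mostly known from liver, had 843 to 1616 CPM in the hypothalamus (median 1261) and 5.58 to 643 CPM in the pituitary (median 26.01), at a log2 fold of -3.51 ± 0.78 (SE, edgeR adjusted p = 0.000536).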
